A study of Homo sapiens with 12 samples.

Results

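The genes described here encode the enzymes that build cholesterol and fatty acids from acetyl-CoA and the proteins that set the activity of both routes. Of 31 genes listed, 30 had a named probe on the array (FDFT1 was the exception), and a probe was taken where both duplicates of some group had a detection p below 0.01. That rule kept 32 probes of 26 genes, out of 11949 detected probes and 8113 genes tested. The measurements came from L540, a CD30-positive Hodgkin lymphoma cell line, on Illumina HumanHT-12 v3 BeadChips. They covered 12 arrays in 6 groups of 2 biological duplicates. CD30 (TNFRSF8) is a receptor of the tumour necrosis factor receptor superfamily, and the comparisons ask what ligand or antibody binding to it does to gene expression.

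The treated groups received CD30L-Fc (CD153-Fc, the CD30 ligand fused to an Fc part) or 1 of the anti-CD30 monoclonal antibodies T104, PW30, T427 and T408, each at a final 10 µg/ml in the used medium after 16 h of preculture. PW30 is labelled as a mouse/human chimeric antibody. The last group was untreated, and whether those cells were given the carrier PBS is not stated. No control antibody or control Fc protein is among the groups. Treatment lasted 8 h according to the design text of the series, which calls the 24 h of the sample titles wrong, whereas the growth protocol has 24 h. The same text names T428 where the titles have T408, and T408 is used here. All cells were of this 1 line, so p-values measure the spread between duplicate cultures of L540.

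In animal cells cholesterol is made through the mevalonate pathway, which also supplies the isoprenoid groups attached to proteins. When membrane sterol is low, the escort protein SCAP carries the SREBP transcription factors (encoded by SREBF1 and SREBF2) from the endoplasmic reticulum to the Golgi, where they are cut and released to the nucleus to switch on the synthesis genes. INSIG1 and INSIG2 hold SCAP back when sterol is plentiful, and INSIG1 is itself a target of the SREBPs.

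The arrays were close in quality. Median signal before normalization was 129.9 to 151.7 intensity units per array, 10910 to 12005 probes per array were detected, and duplicates correlated at r = 0.9904 to 0.9922 over all 48780 probes. The median signal differed by group. It was 150.5 and 144 after CD30L-Fc, 140.4 and 141.9 after T104 and 131.4 and 130.3 after PW30. After T427 it was 136.3 and 130.6, after T408 129.9 and 132.2, and in untreated cells 148.6 and 151.7. Of 6 Hodgkin line markers 4 were detected on all 12 arrays, and TNFRSF8 was detected on 11 and CCL17 on 6. Of the T cell markers CD2 was detected on all 12 arrays, and CD3D, CD3E and CD7 on none. All 4 B cell markers with a probe and all 5 fibroblast and epithelial markers were detected on no array. Of the 4 monocyte and macrophage markers, CSF1R and CD68 were detected on all 12 arrays, LYZ on 1 and CD14 on none. In such bulk samples a smaller share of cells with a transcript and less transcript per cell cannot be told apart.

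Cholesterol synthesis genes rose in a small number of members after CD30L-Fc, T104 and PW30, and no member passed the test after T427 or T408. INSIG1, HMGCS1 and SQLE (squalene epoxidase) rose after each of the first 3 treatments, between 1.52-fold and 2.81-fold over untreated cells. MVK and CYP51A1 also rose after PW30. Calls were made with limma's moderated test at a Benjamini-Hochberg adjusted p below 0.05 over the 8113 genes. The called members were 3 of 26 after CD30L-Fc (11.5%), where 8.33% of all genes were called, 3 of 26 after T104 (11.5%), where 9.43% were called, and 5 of 26 after PW30 (19.2%), where 11.1% were called. Counting rises alone, the shares of all genes were 5.46%, 5.92% and 6.29% in the same order. No member fell, against 2.87%, 3.51% and 4.81% of all genes. The counts after CD30L-Fc and T104 are near their backgrounds, and that after PW30 fell from 5 to 2 when probes were not filtered by detection. The values below are therefore those of named genes and not of the pathway as a whole. All 3 comparisons use the same untreated arrays.

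**Figure D1:**
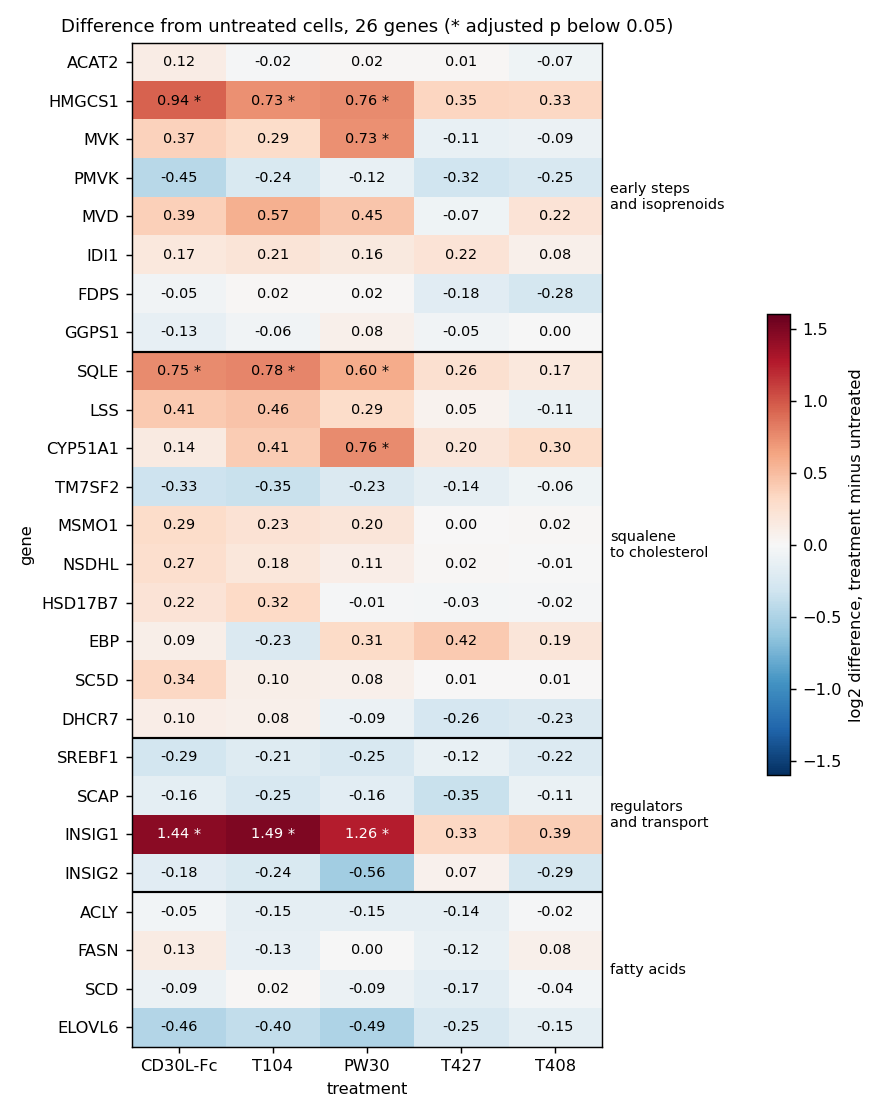
Log2 difference of each treatment minus untreated cells for the 26 detected genes (rows, grouped by role, with the value in each cell; colour bar in log2 units), with an asterisk at adjusted p below 0.05. The asterisks fall on INSIG1, HMGCS1 and SQLE after CD30L-Fc, T104 and PW30 and on MVK and CYP51A1 after PW30, and none stands in the T427 and T408 columns.

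The promoters of the called genes are shown because these members moved in the same direction. The 250 bases before the annotated start are RefSeq sequence of assembly GRCh38.p14, given 5′ to 3′ on the strand of the gene. Capitals mark CCAAT boxes in either orientation (CCAAT or ATTGG) and the E-box CACGTG. For HMGCS1, which has 2 annotated starts, the upstream one is given. No sequence is shown for SQLE.
INSIG1 (plus strand, chr7:155297628-155297877): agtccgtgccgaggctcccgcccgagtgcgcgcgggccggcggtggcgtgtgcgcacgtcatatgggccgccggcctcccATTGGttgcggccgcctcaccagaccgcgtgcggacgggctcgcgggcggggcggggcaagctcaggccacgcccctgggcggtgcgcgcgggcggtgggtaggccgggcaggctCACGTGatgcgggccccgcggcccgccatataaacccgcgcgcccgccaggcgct
HMGCS1 (minus strand, chr5:43313413-43313662): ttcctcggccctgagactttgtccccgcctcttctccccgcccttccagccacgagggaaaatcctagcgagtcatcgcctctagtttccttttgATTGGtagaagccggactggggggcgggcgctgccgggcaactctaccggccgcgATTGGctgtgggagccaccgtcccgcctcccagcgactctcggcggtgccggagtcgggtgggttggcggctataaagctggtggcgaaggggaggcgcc
MVK (plus strand, chr12:109573544-109573793): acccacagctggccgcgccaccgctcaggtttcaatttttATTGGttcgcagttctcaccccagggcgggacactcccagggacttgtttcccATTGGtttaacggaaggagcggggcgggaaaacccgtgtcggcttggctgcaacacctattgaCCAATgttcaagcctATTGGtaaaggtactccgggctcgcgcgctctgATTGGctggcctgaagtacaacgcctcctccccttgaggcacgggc
CYP51A1 (minus strand, chr7:92134478-92134727): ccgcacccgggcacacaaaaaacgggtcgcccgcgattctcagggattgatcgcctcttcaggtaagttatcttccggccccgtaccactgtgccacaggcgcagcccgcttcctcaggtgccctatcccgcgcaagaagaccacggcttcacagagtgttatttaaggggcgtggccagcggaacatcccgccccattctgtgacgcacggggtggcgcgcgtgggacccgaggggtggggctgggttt

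The MVK stretch holds 5 CCAAT boxes, the HMGCS1 stretch 2 (the stretch before its other annotated start holds 0), the INSIG1 stretch 1 beside 1 E-box, and the CYP51A1 stretch has no capitals. Over 37 promoters of 27 of the listed genes, searched on both strands, CCAAT was present in 22 (59.46%), against 32.01% of all 35116 promoters of this length and 34.44% of the 9759 promoters of tested genes. The GC box GGGCGG was present in 33 (89.19%), against 42.64% of all promoters and 64.16% of those of tested genes. CACGTG was present in 4 (10.81%), against 6.34% of all and 8.59% of those of tested genes. The sterol regulatory element core TCACNCCAC was found in 1 promoter, that of SREBF2 (2.7%), against 0.88% of all and 0.92% of those of tested genes. SREBF2 was not among the tested genes, nor were STARD4, FADS1 and FADS2, whose promoters are counted here too. None of these 4 motifs contains another. The shares describe letters in a fixed window and were not tested.

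INSIG1, the endoplasmic reticulum protein that retains SCAP, had the largest difference of the 26 genes after each of CD30L-Fc, T104 and PW30. Its log2 normalised signal was 11.53 and 11.43 after CD30L-Fc, 11.28 and 11.77 after T104, 11.27 and 11.33 after PW30, 10.26 and 10.48 after T427, 10.53 and 10.34 after T408 and 9.94 and 10.14 in untreated cells. The 6 arrays of CD30L-Fc, T104 and PW30 lay at 11.27 or above, and the other 6 at 10.53 or below. The rise was 1.44 ± 0.16 on the log2 scale after CD30L-Fc (SE, 2.71-fold, adjusted p = 0.00012 by limma), 1.49 ± 0.16 after T104 (2.81-fold, adjusted p = 8.25e-05) and 1.26 ± 0.16 after PW30 (2.40-fold, adjusted p = 0.000306). After T427 and T408 both arrays also stood above both untreated ones, with differences of 0.33 (95% interval -0.02 to 0.68, adjusted p = 0.687) and 0.39 (0.04 to 0.75, adjusted p = 0.561) that did not pass. In the F test across the 6 groups INSIG1 had the smallest adjusted p of the members, 0.000119. The second detected probe of the gene gave smaller differences, described with the other probe pairs below.

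HMGCS1, the synthase that makes HMG-CoA at the entry to the mevalonate pathway, stood at 11.30 and 11.13 after CD30L-Fc, 11.03 and 10.98 after T104, 11.12 and 10.96 after PW30, 10.60 and 10.64 after T427, 10.54 and 10.68 after T408 and 10.17 and 10.39 in untreated cells. Its arrays fell into the same order as those of INSIG1, with 10.96 or above after CD30L-Fc, T104 and PW30, between 10.54 and 10.68 after T427 and T408, and 10.39 or below in untreated cells. The log2 rise was 0.94 ± 0.13 after CD30L-Fc (SE, 1.92-fold, adjusted p = 0.000466 by limma), 0.73 ± 0.13 after T104 (1.66-fold, adjusted p = 0.00265) and 0.76 ± 0.13 after PW30 (1.69-fold, adjusted p = 0.00206). After T427 the difference was 0.35 (95% interval 0.07 to 0.62, adjusted p = 0.55), and after T408 it was 0.33 (0.06 to 0.61, adjusted p = 0.492). The F test across the groups gave HMGCS1 an adjusted p of 0.00226.

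MVK, mevalonate kinase, passed after PW30. It stood at 7.70 and 7.79 after CD30L-Fc, 7.58 and 7.76 after T104, 8.37 and 7.84 after PW30, 7.21 and 7.32 after T427, 7.05 and 7.52 after T408 and 7.37 and 7.38 in untreated cells. Both PW30 arrays were the highest of the 12, and the first of them read above the second. The log2 rise after PW30 was 0.73 ± 0.18 (SE, 1.66-fold, adjusted p = 0.0232 by limma), while the differences of 0.37 after CD30L-Fc (adjusted p = 0.274) and 0.29 after T104 (adjusted p = 0.382) did not pass. The F test across the groups gave an adjusted p of 0.0417. The PW30 call of MVK was lost without PW30 array 1 (0.47, adjusted p = 0.183), without untreated array 1 (0.73, adjusted p = 0.087) and without untreated array 2 (0.73, adjusted p = 0.0786).

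The other early enzymes did not pass in any comparison. PMVK, phosphomevalonate kinase, was nearest, on the lower side: 8.30 and 8.14 after CD30L-Fc against 8.61 and 8.72 in untreated cells, a log2 difference of -0.45 ± 0.13 (SE, adjusted p = 0.0592 by limma). It was called when only probes detected on all 12 arrays were tested (adjusted p = 0.0452). MVD, the decarboxylase that makes isopentenyl diphosphate, had differences of 0.39, 0.57 and 0.45 after CD30L-Fc, T104 and PW30, with adjusted p of 0.226 or more. MVD lay just inside the detection rule, with p below 0.01 on 11 arrays and 0.0105 on the other. ACAT2, IDI1, FDPS and GGPS1, which make acetoacetyl-CoA, isomerise isopentenyl diphosphate and build the farnesyl and geranylgeranyl chains, lay between -0.28 and 0.22 in all 5 comparisons with untreated cells. Over the 8 early genes the median log2 difference was 0.14 after CD30L-Fc, 0.11 after T104 and 0.12 after PW30, against -0.04, -0.04 and -0.05 over all genes.

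**Figure D2:**
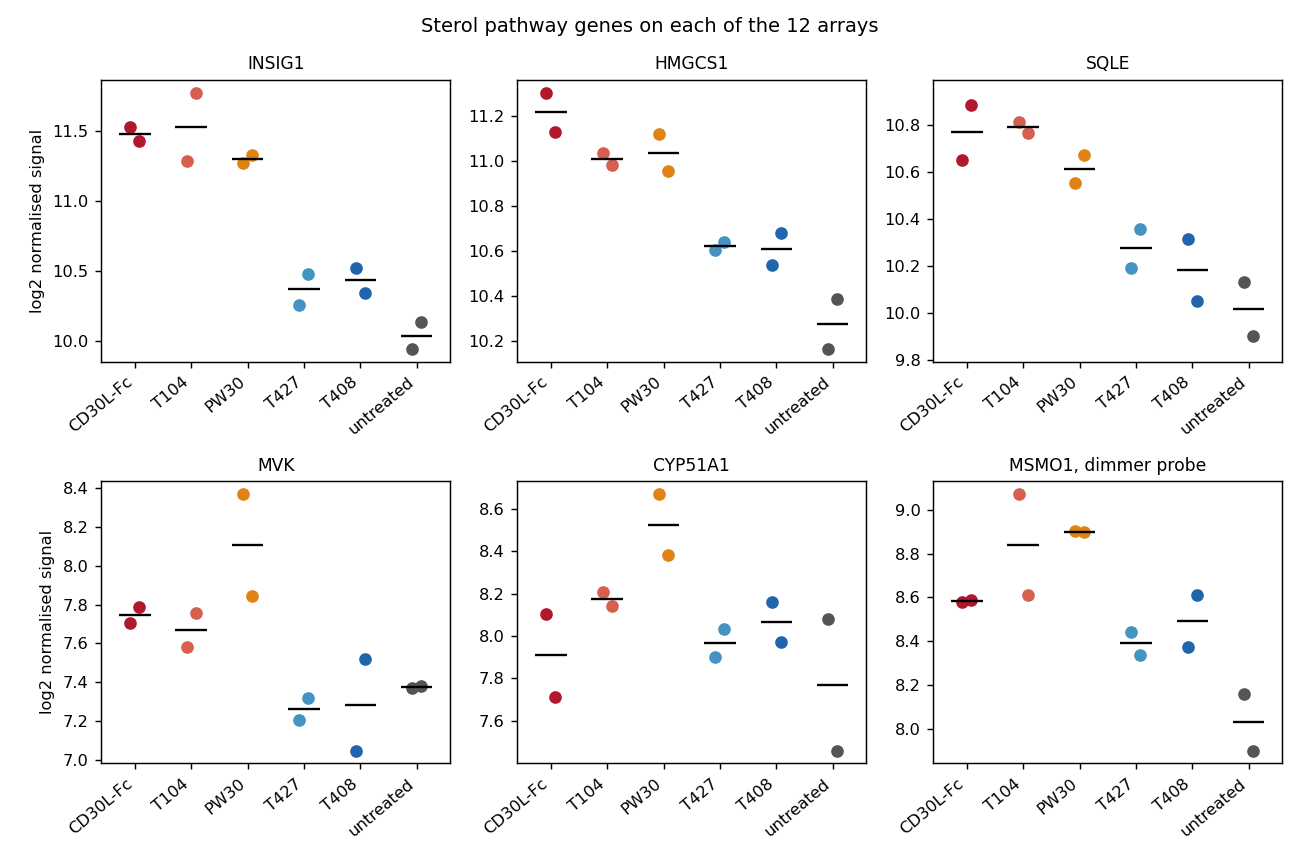
Log2 normalised signal (vertical axis) on each of the 12 arrays, by group, for the members called in at least 1 comparison with untreated cells. A further panel has the dimmer MSMO1 probe, which was called in the fit over all detected probes. Points are arrays and bars are group means. In the INSIG1 panel the CD30L-Fc, T104 and PW30 points lie at 11.27 or above and the rest at 10.53 or below.

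In the branch from squalene to cholesterol, SQLE was the member that rose after 3 treatments. This enzyme oxidises squalene ahead of ring closure. Its log2 signal was 10.65 and 10.89 after CD30L-Fc, 10.81 and 10.77 after T104, 10.55 and 10.67 after PW30, 10.19 and 10.36 after T427, 10.31 and 10.05 after T408 and 10.13 and 9.90 in untreated cells, so that the CD30L-Fc, T104 and PW30 arrays all lay above the other 6. The log2 rise was 0.75 ± 0.14 after CD30L-Fc (SE, 1.69-fold, adjusted p = 0.00484 by limma), 0.78 ± 0.14 after T104 (1.71-fold, adjusted p = 0.00378) and 0.60 ± 0.14 after PW30 (1.52-fold, adjusted p = 0.0166). The differences of 0.26 after T427 (adjusted p = 0.735) and 0.17 after T408 (adjusted p = 0.822) did not pass, and the F test gave SQLE an adjusted p of 0.00848. The call after CD30L-Fc was lost without CD30L-Fc array 2 (0.64, adjusted p = 0.064), and the call after PW30 without PW30 array 1 (0.66, adjusted p = 0.0515), PW30 array 2 (0.54, adjusted p = 0.0983) or untreated array 2 (0.48, adjusted p = 0.1).

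CYP51A1, the lanosterol demethylase, passed after PW30 alone, at 8.10 and 7.71 after CD30L-Fc, 8.21 and 8.14 after T104, 8.67 and 8.38 after PW30, 7.90 and 8.03 after T427, 8.16 and 7.97 after T408 and 8.08 and 7.46 in untreated cells. The PW30 arrays were the 2 highest, but the untreated arrays lay farther apart than those of any other group. The log2 rise after PW30 was 0.76 ± 0.20 (SE, 1.69-fold, adjusted p = 0.0281 by limma), the difference of 0.41 after T104 did not pass (adjusted p = 0.247), and that after CD30L-Fc was 0.14 (adjusted p = 0.742). CYP51A1 did not pass the F test across the groups (adjusted p = 0.165). Its call was lost without PW30 array 1 (0.61, adjusted p = 0.177) and without untreated array 2 (0.44, adjusted p = 0.181). With MVK, SQLE and CYP51A1 all resting on few arrays, the PW30 calls of INSIG1 and HMGCS1 were the only ones of the 5 that remained without PW30 array 1, without untreated array 2 or when no filter on dim probes was set. The count without PW30 array 1 was 3, because INSIG2 was then called lower. CYP51A1 was called after T104 as well when untreated array 1 was left out (0.71, adjusted p = 0.049).

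The remaining 8 detected genes of this branch did not pass through their brightest probe. LSS, lanosterol synthase, which closes the sterol rings, had a log2 difference of 0.41 after CD30L-Fc (adjusted p = 0.199), 0.46 after T104 (adjusted p = 0.142) and 0.29 after PW30 (adjusted p = 0.322). Without untreated array 2 LSS was called after CD30L-Fc (0.69, adjusted p = 0.0373) and T104 (0.73, adjusted p = 0.0267). TM7SF2, a sterol reductase of the endoplasmic reticulum and nuclear envelope, ran the other way at -0.33, -0.35 and -0.23 (adjusted p = 0.123, 0.0955 and 0.251), and with a trend in the variance prior the T104 difference was called (adjusted p = 0.0476). NSDHL and SC5D, a sterol dehydrogenase and a sterol desaturase, had 0.27 and 0.34 after CD30L-Fc, with adjusted p of 0.191 and 0.18. EBP, a sterol isomerase, had the widest range of the 8, from 9.20 to 10.35 over the 12 arrays, with 9.20 and 9.80 on the T104 duplicates. DHCR7 and HSD17B7, reductases of late steps, lay between -0.26 and 0.32 in the 5 comparisons. The branch median over 10 genes was 0.24 after CD30L-Fc, 0.20 after T104 and 0.15 after PW30, against 0.02 after T427 and 0.00 after T408.

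Among the regulators, INSIG1 was the only 1 of 4 detected genes to pass. INSIG2, its paralog, had 9.51 and 8.97 after PW30 against 9.94 and 9.65 in untreated cells, a log2 difference of -0.56 ± 0.20 (SE, adjusted p = 0.0946 by limma). INSIG2 was called lower after PW30 in 4 of the 23 alternatives: the authors' processed table (-0.48, adjusted p = 0.033), no background correction (-0.47, adjusted p = 0.0298), a trend in the variance prior (-0.56, adjusted p = 0.0283) and without PW30 array 1 (-0.82, adjusted p = 0.0432). SREBF1, the gene of SREBP-1, read lower than in untreated cells on both arrays of all 5 treatments through its brighter probe. Its differences were -0.29 after CD30L-Fc, -0.21 after T104, -0.25 after PW30, -0.12 after T427 and -0.22 after T408. Their adjusted p was 0.151 or more by limma. On the dimmer SREBF1 probe PW30 array 1 (7.95) and T427 array 2 (8.13) lay above untreated array 1 (7.90). SCAP differed by -0.35 after T427 (adjusted p = 0.584) and by -0.25 to -0.11 after the other treatments. SREBF2, which encodes the SREBP most tied to cholesterol genes, fell just outside the detection rule: its detection p was between 0.00659 and 0.109 and was below 0.01 on T427 array 2 and T408 array 2 only. STARD4, a sterol carrier protein, was detected on no array, with a smallest detection p of 0.0356.

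None of the 4 detected fatty acid genes passed in any of the 15 comparisons as fitted on all arrays. ACLY, which makes cytosolic acetyl-CoA from citrate, FASN, the fatty acid synthase, and SCD, the stearoyl-CoA desaturase, were measured at log2 signals of 13.03 to 13.31, 13.34 to 13.72 and 12.30 to 12.55 over the 12 arrays. Their differences from untreated cells lay between -0.17 and 0.13. ELOVL6, an elongase of long-chain fatty acids, was lower on both arrays of each treatment than on the untreated arrays, which both read 8.89. Its log2 difference was -0.46 after CD30L-Fc (adjusted p = 0.127), -0.40 after T104 (adjusted p = 0.185) and -0.49 after PW30 (adjusted p = 0.0874). ELOVL6 was called lower after PW30 in 2 alternatives, with median scaling (-0.60, adjusted p = 0.0285) and without PW30 array 2 (-0.72, adjusted p = 0.0376). FADS1 and FADS2, the desaturases of polyunsaturated fatty acids, were detected on no array. Over the 4 detected genes the median was -0.07 after CD30L-Fc, -0.14 after T104 and -0.12 after PW30.

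After T427 none of the 26 members passed in limma, where 0.333% of all genes were called, and after T408 none passed, where 0.271% were called. At an unadjusted p below 0.05, 3 of 26 members differed after T427 (11.5%, against 7.52% of all genes) and 2 after T408 (7.69%, against 7.97%). By the same measure 11 differed after CD30L-Fc (42.3%, against 21.4% of all genes), 6 after T104 (23.1%, against 22.8%) and 8 after PW30 (30.8%, against 26.2%), so that the shares after T408, T104 and PW30 are near their backgrounds. The members' median log2 difference was -0.04 after T427, -0.02 after T408, 0.13 after CD30L-Fc, 0.05 after T104 and 0.05 after PW30. The medians over all genes were -0.01, -0.02, -0.04, -0.04 and -0.05 in the same order. When arrays were scaled to their medians and not quantile-normalised, the median of all genes was -0.133 after PW30 and -0.0914 after T104, and the members' median turned to -0.0484 after PW30, -0.0012 after T104 and 0.0051 after T408. The signs of these list medians therefore depend on the scaling, except after CD30L-Fc and T427.

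The treatments were also compared with each other, each pair as its own contrast. Of the 26 members 4 passed in at least 1 of the 10 pairs (HMGCS1, INSIG1, SQLE and MVK), where 12.8% of all genes did, and the same 4 passed the F test, where 10.2% of genes did. INSIG1 was higher after CD30L-Fc, T104 and PW30 than after T427 or T408 in all 6 such pairs. For INSIG1 the log2 difference was 1.11 for CD30L-Fc minus T427 (adjusted p = 0.00174 by limma), 1.16 for T104 minus T427 (adjusted p = 0.00106) and 0.93 for PW30 minus T427 (adjusted p = 0.00434). Against T408 it was 1.05 after CD30L-Fc (adjusted p = 0.00264), 1.10 after T104 (adjusted p = 0.00166) and 0.87 after PW30 (adjusted p = 0.00725). The INSIG1 call for PW30 minus T427 was lost without T427 array 1 (0.82). That for PW30 minus T408 was lost without PW30 array 2 (0.835) or T408 array 2 (0.78).

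HMGCS1 passed for CD30L-Fc minus T427 (0.59, adjusted p = 0.0178 by limma) and CD30L-Fc minus T408 (0.61, adjusted p = 0.0153). SQLE passed for CD30L-Fc minus T408 (0.59, adjusted p = 0.0311) and T104 minus T408 (0.61, adjusted p = 0.0248). MVK passed for PW30 minus T427 (0.84, adjusted p = 0.0151) and PW30 minus T408 (0.82, adjusted p = 0.0197). These 6 calls were fragile. The 2 of HMGCS1 were lost without CD30L-Fc array 1 or either array of the antibody compared, and that against T427 also without CD30L-Fc array 2 (adjusted p up to 0.151). Those of MVK were lost without PW30 array 1, either T427 array or T408 array 1 (up to 0.163). For SQLE, CD30L-Fc minus T408 was lost without either array of those groups or T104 array 2 (up to 0.222), and T104 minus T408 without either T104 array or T408 array 2 (up to 0.183).

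By pair, the called members were 2 for CD30L-Fc minus T427 (4.99% of all genes), 3 for CD30L-Fc minus T408 (5.32%), 1 for T104 minus T427 (5.19%), 2 for T104 minus T408 (5.95%), 2 for PW30 minus T427 (7.48%) and 2 for PW30 minus T408 (6.69%). Between CD30L-Fc and T104 no member passed, where 0% of all genes did. At an unadjusted p below 0.05 that pair had 278 genes (3.43%) and 1 member (3.85%), a share near the background. For CD30L-Fc minus PW30 (0.16% of all genes called) and T104 minus PW30 (0.32%) no member passed either. At an unadjusted p below 0.05 these 2 pairs had 2 members each (7.69%), below the 1088 genes (13.4%) of the first pair and the 975 genes (12%) of the second. T427 minus T408 had 0 calls among all genes (0%). At an unadjusted p below 0.05 it had 386 genes (4.76%) and 0 of 26 members (0%). The 95% interval for INSIG1 was -0.40 to 0.31 for CD30L-Fc minus T104, -0.18 to 0.53 for CD30L-Fc minus PW30, -0.13 to 0.58 for T104 minus PW30 and -0.42 to 0.29 for T427 minus T408. CYP51A1 had a log2 difference of -0.62 for CD30L-Fc minus PW30 (95% interval -1.04 to -0.19), which did not pass (adjusted p = 0.243), so the call of CYP51A1 after PW30 is not shown to be particular to that antibody. MVK differed by -0.36 (-0.76 to 0.04) for CD30L-Fc minus PW30 and by -0.44 (-0.84 to -0.04) for T104 minus PW30, with adjusted p of 0.421 and 0.36.

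**Figure D3:**
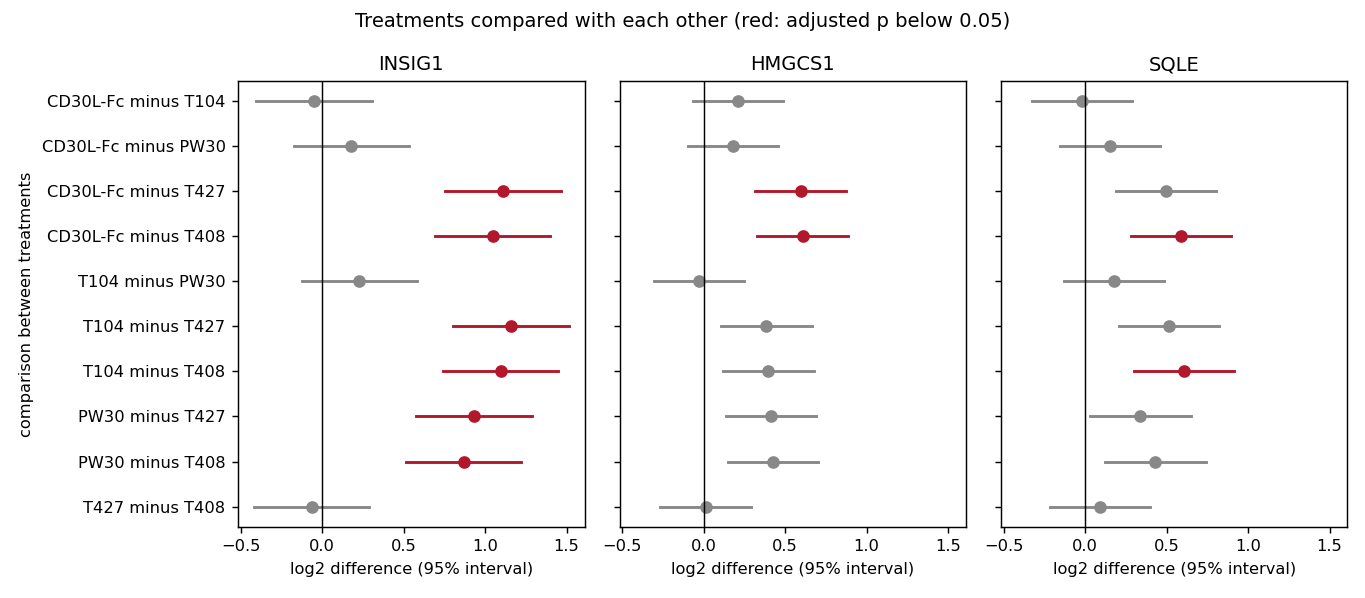
Log2 difference with its 95% interval (horizontal axis) for the 10 pairs of treatments (vertical axis), with a panel each for INSIG1, HMGCS1 and SQLE and with pairs at adjusted p below 0.05 in red. For INSIG1 the 6 pairs that set CD30L-Fc, T104 or PW30 against T427 or T408 lie between 0.87 and 1.16, and the 4 other intervals include 0.

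For 6 members 2 probes were detected, 12 probes in all, and these were tested with all 11949 detected probes in 1 fit. In that fit 4 of the 32 probes of the listed genes were higher after CD30L-Fc (4.95% of all probes), 5 after T104 (5.36%), 7 after PW30 (5.95%), 0 after T427 (0.251%) and 0 after T408 (0.259%). None was lower, against 2.28%, 2.64% and 3.83% of all probes after CD30L-Fc, T104 and PW30 and 0 probes after T427 and T408. Both probes of SQLE passed after CD30L-Fc, T104 and PW30. For the dimmer SQLE probe the log2 rise was 0.94, 0.97 and 0.83 in that order (adjusted p = 0.00266, 0.00194 and 0.00553 by limma). The dimmer INSIG1 probe differed by 0.67, 0.77 and 0.78 (adjusted p = 0.105, 0.0615 and 0.0509) and did not pass, so the size of the INSIG1 rise given above is that of 1 probe. After T427 and T408 the dimmer INSIG1 probe differed by -0.07 and 0.31.

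MSMO1, the methylsterol monooxygenase, passed through its dimmer probe only. That probe read 8.58 and 8.59 after CD30L-Fc, 9.07 and 8.61 after T104, 8.90 and 8.90 after PW30, 8.44 and 8.34 after T427, 8.37 and 8.61 after T408, and 8.16 and 7.90 in untreated cells. All 10 treated arrays lay above both untreated ones. The log2 rise was 0.81 ± 0.16 after T104 (SE, adjusted p = 0.00858 by limma) and 0.87 ± 0.16 after PW30 (adjusted p = 0.00557), and the difference of 0.55 after CD30L-Fc did not pass (adjusted p = 0.0649). The T104 call was lost without T104 array 1 (0.58, adjusted p = 0.094) or untreated array 2 (0.68, adjusted p = 0.0695). The brighter MSMO1 probe had a log2 difference of 0.29 after CD30L-Fc, 0.23 after T104 and 0.20 after PW30, with adjusted p of 0.247 or more. Probes of ACLY, DHCR7 and SREBF1 did not pass in any of the 5 comparisons with untreated cells. The 2 ACLY probes differed in sign after CD30L-Fc, PW30, T427 and T408. The brighter and dimmer DHCR7 probes differed in sign after PW30 (-0.09 and 0.15) and T408 (-0.23 and 0.02). The difference between the 2 probes of a gene was not tested.

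**Figure D4:**
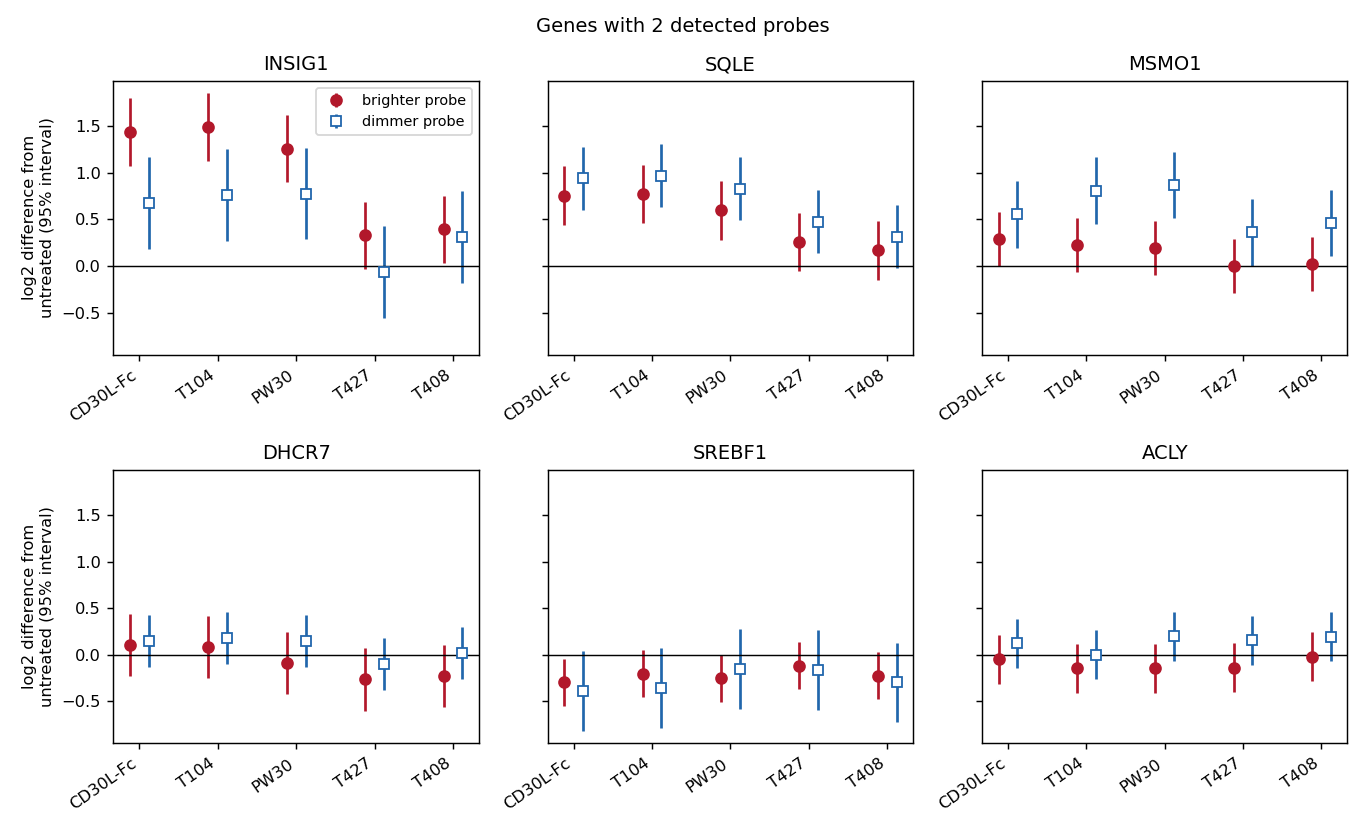
Log2 difference from untreated cells with its 95% interval (vertical axis) after each of the 5 treatments (horizontal axis) for the 6 genes with 2 detected probes, the brighter probe in filled red and the dimmer in open blue. The dimmer MSMO1 probe reaches 0.81 after T104 and 0.87 after PW30, where the brighter probe is at 0.23 and 0.20.

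Around the synthesis enzymes, a list of 45 further genes of sterol, isoprenoid and fatty acid metabolism was read in the same fit. Of these 40 had a named probe and 33 were tested. After each of CD30L-Fc, T104 and PW30 4 of the 33 passed (12.1%), with 3 higher and 1 lower after CD30L-Fc and T104 and 2 in each direction after PW30, and none passed after T427 or T408. The median over the 33 was -0.03, 0.04 and -0.04 after CD30L-Fc, T104 and PW30. These shares stand beside the backgrounds of 8.33%, 9.43% and 11.1% given above.

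MYLIP, an E3 ubiquitin ligase that marks lipoprotein receptors for degradation, had the largest rise of the 33. Its log2 signal was 11.02 and 10.85 after CD30L-Fc, 11.10 and 11.02 after T104, 11.30 and 11.16 after PW30, 10.20 and 10.54 after T427, 10.64 and 10.34 after T408 and 9.89 and 10.01 in untreated cells. It rose by 0.98 ± 0.15 after CD30L-Fc (SE, 1.98-fold, adjusted p = 0.00096 by limma), 1.11 ± 0.15 after T104 (2.16-fold, adjusted p = 0.000377) and 1.28 ± 0.15 after PW30 (2.44-fold, adjusted p = 0.000131). After T427 and T408 all 4 arrays of MYLIP also stood above both untreated arrays, with differences of 0.42 and 0.54 that did not pass (adjusted p = 0.515 and 0.289). MYLIP was higher after PW30 than after T427 by 0.86 (adjusted p = 0.00377) and than after T408 by 0.74 (adjusted p = 0.01). The PW30 minus T408 call of MYLIP was lost without PW30 array 1 (adjusted p = 0.0743) or T408 array 2 (adjusted p = 0.104).

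The subunits of protein farnesyltransferase, which attaches farnesyl groups to proteins, moved in opposite directions. FNTA, the alpha subunit, had 10.56 and 10.33 after CD30L-Fc, 10.36 and 10.30 after T104, 10.54 and 10.51 after PW30, 10.41 and 10.31 after T427, 10.27 and 10.43 after T408 and 9.94 and 9.82 in untreated cells. It rose by 0.56 after CD30L-Fc (adjusted p = 0.012 by limma), 0.45 after T104 (adjusted p = 0.0404) and 0.64 after PW30 (adjusted p = 0.00517), and both untreated arrays were below the 10 treated ones. FNTB, the beta subunit, had 9.52 and 9.52 after CD30L-Fc, 9.48 and 9.52 after T104, 9.27 and 9.45 after PW30, 9.78 and 9.73 after T427, 9.92 and 9.73 after T408 and 10.03 and 10.15 in untreated cells. For FNTB the difference was -0.57 after CD30L-Fc (adjusted p = 0.00964), -0.59 after T104 (adjusted p = 0.00734) and -0.73 after PW30 (adjusted p = 0.0018), with both untreated arrays above the 10 treated ones.

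The PW30 calls of FNTA and FNTB were the firmest. The T104 call of FNTA was lost in 13 of 23 alternatives (adjusted p up to 0.19), among them each one that left out an array of T104, PW30, T427 or the untreated group, or T408 array 2. The CD30L-Fc call of FNTA was lost without CD30L-Fc array 1 (adjusted p = 0.132) or untreated array 2 (adjusted p = 0.0724). The CD30L-Fc call of FNTB was lost without either CD30L-Fc array (adjusted p = 0.0632 and 0.067) or untreated array 2 (adjusted p = 0.0621), and its T104 call without T104 array 1 (adjusted p = 0.0613) or untreated array 2 (adjusted p = 0.0519).

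ACSL1, which activates long-chain fatty acids as CoA esters, had 10.35 and 10.51 after CD30L-Fc, 10.54 and 10.41 after T104, 10.32 and 10.33 after PW30, 10.31 and 10.24 after T427, 10.25 and 10.28 after T408 and 9.80 and 10.08 in untreated cells. It rose by 0.49 after CD30L-Fc (adjusted p = 0.0334 by limma) and 0.53 after T104 (adjusted p = 0.0201). The difference of 0.39 after PW30 did not pass (adjusted p = 0.0732), and ACSL1 did not pass the F test across the groups (adjusted p = 0.109). Both calls of ACSL1 were lost without untreated array 1 (adjusted p = 0.2 and 0.132) and without either array of the treatment (adjusted p up to 0.218). POR, the cytochrome P450 reductase that passes electrons to CYP51A1 and SQLE, had 8.65 and 8.51 after CD30L-Fc, 8.62 and 8.70 after T104, 7.98 and 8.29 after PW30, 8.44 and 8.40 after T427, 8.70 and 8.68 after T408 and 8.69 and 8.91 in untreated cells. It fell after PW30, with a log2 difference of -0.66 ± 0.13 (SE, adjusted p = 0.00706), while CYP51A1 and SQLE rose after the same antibody. The PW30 call of POR was lost without PW30 array 1 (adjusted p = 0.0708) or untreated array 2 (adjusted p = 0.0542).

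Between treatments, further calls in this list were few. MYLIP was higher for T104 minus T427 (0.69, adjusted p = 0.0167 by limma), T104 minus T408 (0.57, adjusted p = 0.0414) and CD30L-Fc minus T427 (0.56, adjusted p = 0.0487). The last of these was lost in 15 of 22 alternatives (adjusted p up to 0.334), the T104 minus T408 call in 13 (up to 0.272), and the T104 minus T427 call without either T104 array or T427 array 1 (up to 0.161). FNTB was lower for PW30 minus T408 (-0.46, adjusted p = 0.0403), which was lost in 14 of 22 alternatives (up to 0.217). POR was lower for PW30 minus T408 (-0.56, adjusted p = 0.0291), lost without PW30 array 1 or either T408 array (up to 0.177). GPAM, the acyltransferase that starts glycerolipid synthesis in mitochondria, did not pass the F test across the groups (adjusted p = 0.0931). GPAM read 7.41 and 7.54 after PW30 against 8.17 and 8.08 after T427, a called log2 difference of -0.65 (adjusted p = 0.0265 by limma). It was lost without either array of either group (up to 0.149).

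**Figure D5:**
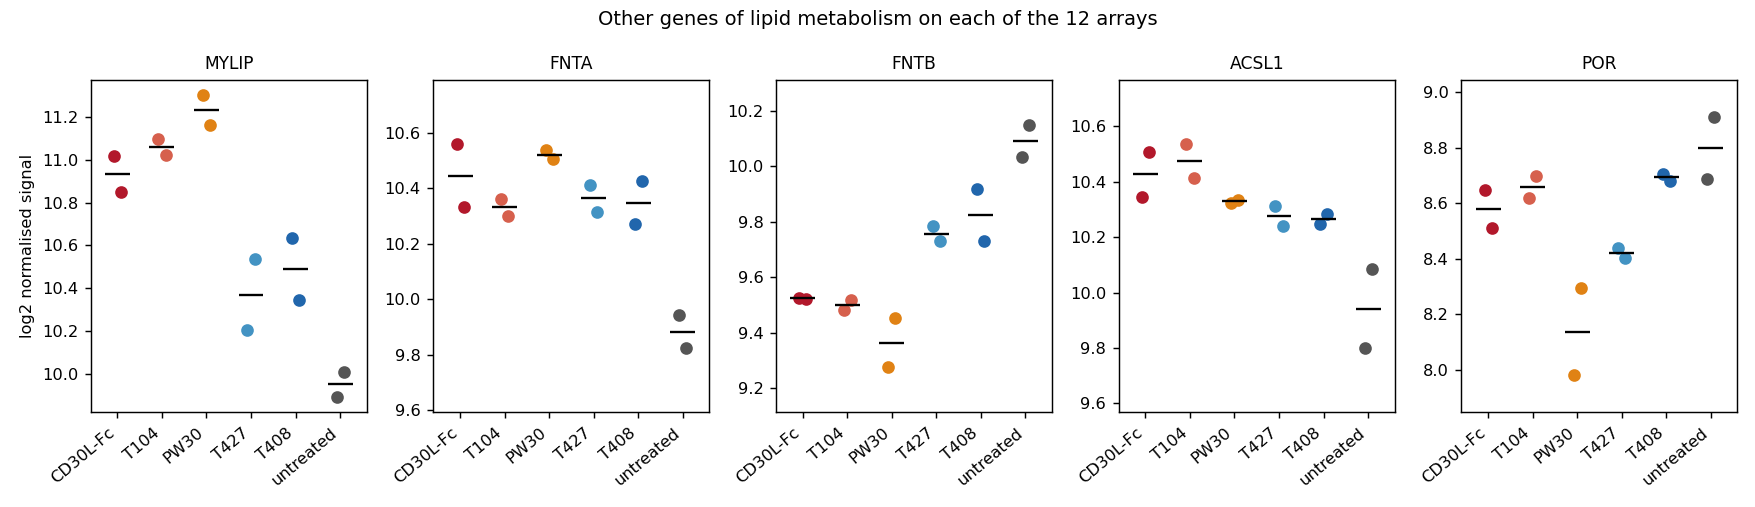
Log2 normalised signal (vertical axis) on each of the 12 arrays, by group, for further genes of lipid metabolism that passed the test; points are arrays and bars are group means. MYLIP reads 10.85 to 11.30 after CD30L-Fc, T104 and PW30 and 9.89 and 10.01 in untreated cells, and FNTA and FNTB lie on opposite sides of their untreated points.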

How the data were processed

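The authors processed the scanned BeadChips with GenomeStudio, per the submitters' processing notes, whereas the series design text mentions BeadStudio, and neither gives a version. The deposited unnormalized table has a linear signal intensity for 48780 probes. Per the file headers it also holds a detection p-value for every probe and array. A second intensity table, the authors' processed one, served as an alternative; it appeared quantile-normalised, which no label states. The probe annotation gave 1 gene to 28082 probes, several to 13 and none to 20685. Through Entrez identifiers 28043 symbols were updated to RefSeq GRCh38.p14, and 39 stayed as given.

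Background was corrected with limma's normexp model (control moments inferred from the detection p-values, offset 16), followed by quantile normalization and log2 (limma 3.58.1, R 4.3.3). The filter was detection at p below 0.01 by both duplicates of any group, and the brightest probe stood for a gene. A model of 6 group means was fitted over the 12 arrays with lmFit and eBayes. The 15 comparisons were two-sided, with Benjamini-Hochberg adjustment in each. With 2 arrays a group, the smallest exact permutation p is 0.333. The number of arrays limits the precision, and intervals are at 95%. Slides and scan dates were not used here. The fit was tested on simulated data.

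Members, lists and tests were chosen with earlier results of these data known. Members called against untreated cells or in the F test were named with full values, as were called genes of the wider pathway list. The alternatives covered scaling, background correction, offset, filter, probe choice, variance prior, adjustment over all comparisons, a replicate block, fits of 2 groups alone and leaving out each array.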

Additional observations from a re-analysis of the deposited data

How the results depend on the processing

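No called difference reversed its sign. INSIG1 and HMGCS1 passed after CD30L-Fc, T104 and PW30 in all 23 alternatives, with log2 differences of 1.34 to 1.53, 1.24 to 1.73 and 1.16 to 1.36 for INSIG1 and 0.83 to 1.05, 0.62 to 0.84 and 0.65 to 0.87 for HMGCS1, as did SQLE after T104. Of 43 called differences of named genes 17 passed throughout. These are calls of the brightest probe of each gene, so the dimmer INSIG1 probe was not among them. The 5 called members after PW30 became 2 without the filter on dim probes and 2 with only the arrays of the 2 groups fitted. The 4 members called between treatments became 7 with the authors' processed table, 7 when background was left uncorrected, 7 when the variance prior followed a trend and 1 without the filter. The 3 members added in each setting that gave 7 were EBP (T104 minus T427, lower), INSIG2 (PW30 minus T427, lower) and LSS (T104 minus T408, higher). Dropping the filter adds tested probes, and fitting 2 groups leaves fewer arrays. The cause of these changes in number was not tested. The share of all genes called was not counted in the alternatives, so a change particular to the members is not shown. Leaving out 1 array gave 2 to 4 members after CD30L-Fc, 3 to 4 after T104, 2 to 5 after PW30, 0 to 0 after T427 and T408, 3 to 5 between treatments and 3 to 4 in the F test; a lone array was assumed to vary like the other groups. Same-numbered arrays did not deviate together (r of -0.0758 to 0.107 over 15 group pairs, 1 of them over 0.1), so the numbers were not taken as pairs; with the replicate block the called members after PW30 stayed 5 in number, the F test gave 3, and 4 were called between treatments. The alternatives for the dimmer MSMO1 probe were chosen after seeing the data. With 2 arrays a group, the members with the largest SE were MVD (0.27), EBP (0.24), INSIG2 (0.20) and CYP51A1 (0.20), ahead of MVK (0.18).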
